A study of Homo sapiens with 18 samples.

Results

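UM-UC-3 cells transfected with siACAT1-2, an siRNA against ACAT1, were compared with UM-UC-3 cells transfected with siNC, a control siRNA. The comparison is between 6 of the 18 libraries of the series, 3 from each group. Each siACAT1-2 library was paired with the siNC library of the same replicate number. All 18 libraries were fitted together, so all of them took part in the estimate of the spread. UM-UC-3 is an established human bladder cancer cell line, kept in MEM with 10% fetal bovine serum, and both siRNAs were delivered by lipofection. The other 12 libraries are UM-UC-3 cells with a second siRNA, siACAT1-1, and T24 cells, another human bladder cancer line, with siNC, siACAT1-1 or siACAT1-2, again with 3 libraries each. The time between transfection and lysis is not given in the sources used here, and the labels call the replicates biological without saying whether they are separate cultures or what a number marks, so the p-values measure the spread between these libraries. The question addressed is which transcripts differ after ACAT1 is silenced, in a study of proliferation, the cell cycle, epithelial-mesenchymal transition and the AKT, GSK3B and c-Myc pathway.

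ACAT1 encodes a mitochondrial thiolase that works in the use of ketone bodies and in the breakdown of isoleucine. An siRNA is loaded into an Argonaute protein, which cuts transcripts that pair with the guide strand over its length. As general background, a guide strand can also lower other transcripts through a short seed match in their 3' UTR, and double-stranded RNA can set off the interferon response in some cells. These statements describe how siRNAs are known to work and are not results of these data.

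Counted reads ranged from 28227323 to 32088180 over the siNC libraries and from 28522446 to 28667905 over the siACAT1-2 libraries. Of 39496 genes in the table, 20144 had enough counts to be tested. Each gene was tested with the quasi-likelihood test of edgeR, with the replicate number blocked. The p values were adjusted by Benjamini and Hochberg's method over all tested genes, and the threshold for calling a gene was an adjusted p of 0.05. Expression levels are given per library as the deposited RPKM (counts scaled by gene length and library total), always for replicates 1, 2 and 3 in that order, and differences as log2 fold changes. Of the defining urothelial markers, UPK3A, UPK3B and CDH1 were listed at 0 RPKM in all 6 libraries, and UPK1B, ELF3, KRT5, KRT14 and GATA3 were at or under 0.108 RPKM. KRT8, KRT18 and KRT7 were expressed, at 28.8 to 45.2, 103 to 161 and 2.27 to 7.22 RPKM, and UPK2 and UPK1A were low, at 0.439 to 0.602 and 0.13 to 0.436 RPKM. Of the 9 leukocyte markers matched, CD68 was at 126 to 160 RPKM with siNC and 139 to 180 RPKM with siACAT1-2, and the other members were at or under 0.30 RPKM. Endothelial markers summed to 0.141 to 0.246 RPKM with siNC and 0.174 to 0.265 RPKM with siACAT1-2.

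ACAT1, the targeted gene (chromosome 11 of GRCh38, 108121516 to 108147776, plus strand), fell in every pair. Its level was 47.4, 46.5 and 44.1 RPKM with siNC and 1.83, 2.79 and 1.86 RPKM with siACAT1-2, so that 4.69% of the siNC mean remained. On the log2 scale this was a change of -4.48 with a standard error of 0.17 (edgeR, adjusted p = 6.1e-13). RP11-144G7.2, a gene on the opposite strand whose exons cover 2.92% of the ACAT1 exon bases, fell as well, from 18.2, 18.8 and 17.3 RPKM to 3.45, 3.22 and 2.00 RPKM (log2 fold change -2.70, standard error 0.21, adjusted p = 3.2e-07). It was also lower with siACAT1-1 in the same cells (-2.20, adjusted p = 6.3e-06). In T24 cells it had -2.66 with siACAT1-2 (adjusted p = 5.1e-07) and -1.99 with siACAT1-1 (adjusted p = 3.5e-05). Its reads cannot be told apart from those of overlapping genes, since 63.7% of its exon bases lie in exons of other genes, 46.8% in those of CUL5, and the strand setting of the counting is not given in the sources used here.

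Across the transcriptome, siACAT1-2 changed 273 genes in UM-UC-3 cells. There were 128 higher genes (0.635% of those tested) and 145 lower genes (0.720%), with median log2 fold changes of 0.82 and -0.72 against -0.000851 over all tested genes. At least 2-fold changes were fitted for 40 of the higher and 29 of the lower genes. All 128 higher genes were higher in each of the 3 pairs, which was the case for 17.1% of all tested genes, and 144 of the 145 lower genes were lower in each pair, against 18.0%. The exception was OSCAR. The siNC and siACAT1-2 libraries did not overlap for 106 of the higher and 113 of the lower genes, while 6.15% and 5.86% of all tested genes were separated in these directions. In 141 of the 273 genes some exon bases overlap another gene, and in 76 at least 10% of them do.

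**Figure D1:**
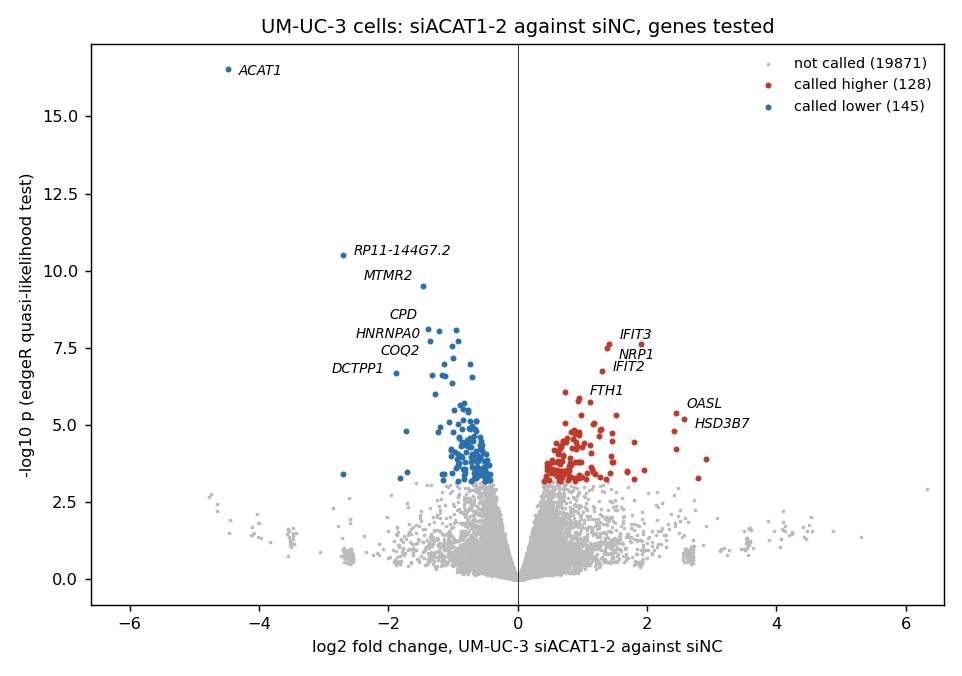
The log2 fold change of each tested gene with siACAT1-2 against siNC in UM-UC-3 cells (x axis) is plotted against -log10 of its unadjusted p from edgeR's quasi-likelihood test (y axis). Grey points are genes not called, red points are the 128 called higher and blue points the 145 called lower. ACAT1 stands apart at a log2 fold change of -4.48, and IFIT3 (1.42) and NRP1 (1.39) are among the higher genes with the lowest p.

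These counts depended strongly on the pairing. Without the replicate block 11 genes passed, and all 11 were also called with it: IFIT3, NRP1 and HSD3B7 were higher, and ACAT1, RP11-144G7.2, MTMR2, CPD, IPO7, HNRNPA0, COQ2 and RAI14 were lower. Leaving out any 1 of the 6 libraries left 20 to 67 higher and 41 to 68 lower genes, with the fewest without replicate 2 of siNC, and 12 and 34 were left without replicate 2 of all UM-UC-3 groups. ACAT1, IFIT3, NRP1, RP11-144G7.2, MTMR2, CPD, IPO7, HNRNPA0, COQ2 and RAI14 passed in all 18 alternative fits.

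The lower genes with the smallest p had a short sequence in common. For each 7-base word of the ACAT1 transcript, the 3' UTRs of the tested genes were searched on the transcript strand, and the word whose carriers had the lowest median log2 fold change with siACAT1-2 in T24 cells was taken. That word was CTAGCAA, and T24 cells share no library with UM-UC-3 cells. It occurs 1 time in the ACAT1 transcript, at position 1121 of 1537 in exon 11 of 12, ahead of the 3' UTR that starts at position 1325. The sites below are shown because they belong to ACAT1 and to the 8 carriers called lower with the smallest p. Each is from the Ensembl canonical transcript of the gene in GENCODE, 5' to 3', with GRCh38 positions and the word in capitals. The ACAT1 site lies at chr11:108146267-108146293 (+) in the coding part, and the others lie in 3' UTRs: MTMR2 at chr11:95833758-95833784 (-), CPD at chr17:30465549-30465575 (+), IPO7 at chr11:9445911-9445937 (+), HNRNPA0 at chr5:137752845-137752871 (-), CCT2 at chr12:69601351-69601377 (+), COQ2 at chr4:83264038-83264064 (-), RAI14 at chr5:34831851-34831877 (+) and SPCS3 at chr4:176328903-176328929 (+).
ACAT1: tctggttgtaCTAGCAAacattaaaat
MTMR2: atttaagtggCTAGCAAatcagtaatt
CPD: agagagagatCTAGCAAaagctaaaac
IPO7: taaaaatgaaCTAGCAAttttgtacct
HNRNPA0: cgtttttataCTAGCAAaatgtcttgt
CCT2: ggaccagtttCTAGCAAagttgtgttt
COQ2: tacttatttgCTAGCAAaattccccct
RAI14: atttctgaatCTAGCAAatcctccttt
SPCS3: ttacatgtgaCTAGCAActttctccac

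The sequence of siACAT1-2 was not used here, so its match to the word was not tested. MTMR2, a lipid phosphatase of the myotubularin family, was at 4.53, 5.44 and 4.6 RPKM with siNC and 1.78, 1.97 and 1.71 RPKM with siACAT1-2 (log2 fold change -1.46, standard error 0.13, adjusted p = 2.0e-06). CPD, carboxypeptidase D, was at 2.02, 2.16 and 1.79 RPKM against 0.827, 0.821 and 0.713 RPKM (-1.38, standard error 0.15, adjusted p = 3.0e-05). The groups did not overlap for either gene, and the replicates of a group lay close together. IPO7, a nuclear import receptor, had a much higher level and was at 82.5, 81.6 and 86.7 RPKM with siNC and 43.2, 43.1 and 46.8 RPKM with siACAT1-2, which left 53.1% of its mean (-0.95, standard error 0.10, adjusted p = 3.0e-05). HNRNPA0, an RNA-binding protein with 2 copies of the word in its 3' UTR, was at 3.95, 4.05 and 3.54 RPKM against 1.52, 1.93 and 1.70 RPKM (-1.21, standard error 0.13, adjusted p = 3.0e-05). Every siACAT1-2 library was thus below every siNC library for these 4 genes.

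CCT2, a subunit of the cytosolic chaperonin, fell from 70.1, 82.6 and 61.1 RPKM to 34, 40.9 and 40.8 RPKM (log2 fold change -0.92, standard error 0.10, adjusted p = 4.8e-05). COQ2, an enzyme of coenzyme Q synthesis, fell from 9.25, 7.07 and 8.84 RPKM to 3.22, 3.47 and 3.40 RPKM (-1.35, standard error 0.15, adjusted p = 4.8e-05). RAI14, an actin-associated protein, fell from 17.7, 21.5 and 15.9 RPKM to 7.96, 9.87 and 10.2 RPKM (-1.02, standard error 0.12, adjusted p = 5.1e-05). The spread within siNC was wider here than for IPO7, but the groups again did not overlap. SPCS3, a subunit of the signal peptidase, had a log2 fold change of -1.0 (adjusted p = 1.0e-04), STK39, a kinase that acts on ion cotransporters, -1.14 (adjusted p = 1.4e-04), and TPM4, a tropomyosin, -0.74 (adjusted p = 1.4e-04). DCTPP1, a dCTP pyrophosphatase, had the largest fall among the carriers called lower, at -1.89 (standard error 0.25, adjusted p = 2.5e-04), with 42.1% of its exon bases shared with ZNF771. Its levels of 2.87, 3.71 and 1.27 RPKM with siNC and 0.642, 1.15 and 0.399 RPKM with siACAT1-2 moved together by replicate number, and its adjusted p was 0.74 without the block. With siACAT1-1 in the same cells MTMR2 was at 6.48, 6.04 and 5.70 RPKM, IPO7 at 102, 81.8 and 93.5 RPKM and COQ2 at 7.54, 6.10 and 8.11 RPKM, and all of these libraries lay above the siACAT1-2 libraries.

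**Figure D2:**
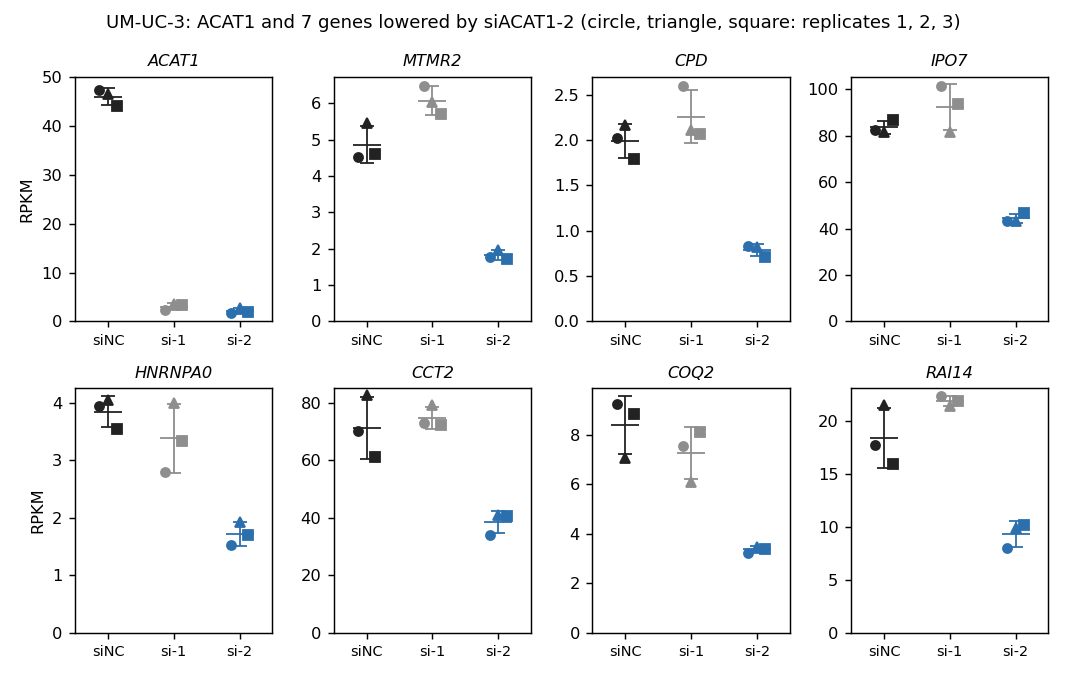
RPKM (y axis, linear, from 0) of ACAT1 and 7 genes that fell with siACAT1-2 in UM-UC-3 cells, with siNC (black), siACAT1-1 (si-1, grey) and siACAT1-2 (si-2, blue). Each symbol is 1 library and the bars give the mean and the SD of 3 libraries. Both ACAT1 siRNAs lowered ACAT1, while for MTMR2, CPD, IPO7, HNRNPA0, CCT2, COQ2 and RAI14 the siACAT1-2 libraries lie below all siNC and siACAT1-1 libraries.

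Taking all genes rather than the strongest, carriers of the word had lower values than the other genes. A 3' UTR was matched for 13547 tested genes, and 999 of them (7.37%) carry the word. The carriers' median log2 fold change was -0.11, and by pair it was -0.107, -0.159 and -0.0766, while the 12548 genes without it had a median of 0.00972. Of the carriers 66.3% were below 0, against 48.0% of the others. There were 59 carriers called lower (5.91%) and 4 called higher (0.400%, among them PAIP2B, RRAGD and ZBTB20), and without the word 62 genes were called lower (0.494%) and 103 higher (0.821%). Seen from the other side, the word is in 48.8% of the lower genes with a matched 3' UTR and in 3.74% of the higher ones. Of the 12 lower genes with the smallest p by the naming rule, 11 had a matched 3' UTR and all 11 carry it, as against 0 of the 12 higher genes.

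In UM-UC-3 cells the carriers' median was below that of the other genes at each UTR length. Genes with 1 copy (896) had a median of -0.107 and 5.58% were called lower, and genes with 2 or more (103) had a median of -0.162 and 8.74% were called lower. With the same siRNA in T24 cells the order was the other way, at -0.107 and -0.081, and genes with more copies have longer 3' UTRs (medians of 5080 and 3360 bases), within which copies were not compared. Carriers have longer 3' UTRs, with a median of 3510 bases against 1180 bases, so carriers and other genes were also set side by side within 3 equal bins of UTR length. In the bin of the shortest UTRs the medians were -0.264 for carriers and 0.0158 for the others, with 16% and 0.560% called lower. In the middle bin they were -0.123 and 0.0156, with 8.37% and 0.464% called lower, and in the bin of the longest -0.102 and -0.00120, with 4.56% and 0.451%. Among the 1391 words of the ACAT1 transcript with at least 30 carriers, the medians ran from -0.11 to 0.0836 in this comparison, with this word at rank 1, and the lowest word that does not overlap it was at -0.0579. With siACAT1-1 the word ranked 921 in T24 and 940 in UM-UC-3 cells. Without the block 6 carriers were called lower, and leaving out libraries left 18 to 37, the fewest without replicate 2.

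**Figure D3:**
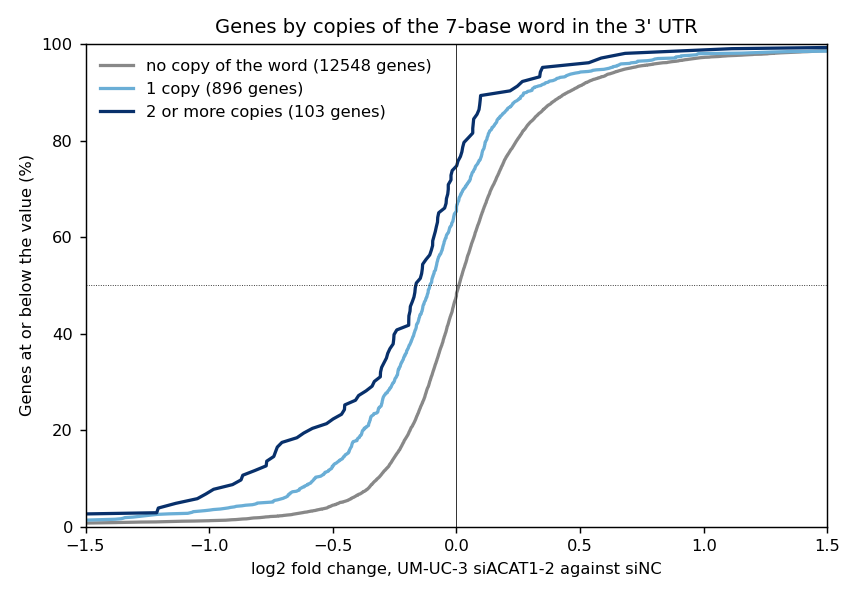
Cumulative share of genes (y axis, %) at or below a log2 fold change with siACAT1-2 against siNC in UM-UC-3 cells (x axis, cut at -1.5 and 1.5), for genes with no copy of the word in the 3' UTR (grey), 1 copy (light blue) and 2 or more copies (dark blue). The curves lie further left with more copies, with medians of 0.00972, -0.107 and -0.162.

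Other lower genes are given here, most of them named after their values were seen. COQ5, an enzyme of coenzyme Q synthesis like COQ2, fell from 13.6, 11.2 and 18.8 RPKM to 8.84, 8.42 and 12.4 RPKM (log2 fold change -0.58, adjusted p = 0.0096) and PDSS2, of the same pathway, had -0.83 (adjusted p = 0.043), and neither carries the word. No list of coenzyme Q genes was tested, and COQ6 (-0.28, adjusted p = 0.51), PDSS1 (-0.14, adjusted p = 0.76), COQ9 (0.12, adjusted p = 0.70) and COQ3 (0.02, adjusted p = 0.99) are among those that did not pass. MCU, the pore of the mitochondrial calcium uniporter, fell from 3.95, 4.38 and 4.44 RPKM to 1.75, 1.89 and 1.61 RPKM (-1.33, standard error 0.18, adjusted p = 2.5e-04) and has no copy of the word. PTBP1, a splicing repressor that carries the word, fell from 6.84, 9.62 and 5.72 RPKM to 5.17, 4.90 and 3.45 RPKM (-0.74, adjusted p = 0.0053). Its paralog PTBP2, whose mRNA PTBP1 is known to hold down through splicing, rose from 1.05, 1.40 and 1.04 RPKM to 2.60, 2.12 and 2.12 RPKM (0.94, adjusted p = 0.0055). LMNB1, a lamin of the nuclear envelope that carries the word, had -0.89 (adjusted p = 0.0015). ASAP1, which acts on ARF GTPases, had -1.12 (adjusted p = 2.5e-04), and AXL, a receptor kinase, fell from 41.7, 32.5 and 36.1 RPKM to 25.4, 22.1 and 25.2 RPKM (-0.64, adjusted p = 0.0055). Neither ASAP1 nor AXL carries the word. These 2 were the called members among 26 tested YAP and TEAD genes, whose median was -0.230.

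Interferon-stimulated genes, which cells switch on when they sense double-stranded RNA or interferon, had more members called higher than any other list examined. Of 45 tested, 8 were called higher and 0 lower by edgeR, and at an unadjusted p under 0.05 there were 22 higher and 0 lower. DESeq2 called 12 higher and limma voom 7, and each called 0 lower. The base for this and the other lists is all 20144 tested genes in edgeR's test. Of these, 2706 were at an unadjusted p under 0.05 in either direction, 0.635% were called higher and 0.720% called lower. Over the same 20144 genes DESeq2 called more, 274 higher and 269 lower, and limma voom called 146 higher and 192 lower. In the interferon list 40 members were above 0 and 26 were higher in all 3 pairs. The list's median was 0.494, or 0.563, 0.470 and 0.336 by pair. IFIT3, which binds other IFIT proteins on foreign RNA, was at 3.11, 3.13 and 4.78 RPKM with siNC and 9.93, 9.83 and 10.1 RPKM with siACAT1-2 (log2 fold change 1.42, standard error 0.16, adjusted p = 4.8e-05). IFIT2 was at 1.04, 1.05 and 1.90 RPKM against 3.50, 2.09 and 4.75 RPKM (1.30, standard error 0.17, adjusted p = 2.2e-04). ISG15, a ubiquitin-like modifier, was at 5.04, 4.6 and 3.37 RPKM against 10.3, 10.4 and 11.1 RPKM (1.26, standard error 0.23, adjusted p = 0.0068). The groups were apart for all 3 genes, and the siACAT1-2 libraries lay closest together for IFIT3. OASL, a relative of the oligoadenylate synthases, rose from 0.0604, 0.0354 and 0.0552 RPKM to 0.259, 0.238 and 0.359 RPKM (2.44, standard error 0.39, adjusted p = 0.0024), which is a large ratio at a low level. IFI44 had a log2 fold change of 0.95 (adjusted p = 0.0066), DDX60 0.83 (adjusted p = 0.011), IFIT1 0.93 (adjusted p = 0.021) and GBP2, an interferon-induced GTPase, 1.36 (adjusted p = 0.044).

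Not all of the list took part. OAS3 (-0.10), IFITM2 (-0.18) and IFI27 (-0.42) did not pass the test and had values below 0, and MX1 (1.51, adjusted p = 0.10) and OAS1 (0.86, adjusted p = 0.15) did not pass with values above it. RSAD2 had 0 counts in all 3 siNC libraries and 2, 2 and 28 counts with siACAT1-2, and did not pass (adjusted p = 0.066). Among 11 tested sensors of double-stranded RNA and their partners, IRF3, a transcription factor that acts after sensing, was called higher, from 6.95, 8.51 and 9.46 RPKM to 11.9, 13.9 and 13.2 RPKM (0.61, adjusted p = 0.021). The list's median was 0.288, and the interferon lambda genes IFNL1 and IFNL3 did not have enough counts to be tested. With siACAT1-1 the interferon list had a median of 0.0904 in the same cells, with 1 member called higher, and of 0.424 in T24 cells, and IFIT3 was at 4.43, 4.34 and 4.76 RPKM. siACAT1-2 was above siACAT1-1 for IFIT3 (1.11 on the log2 scale, adjusted p = 4.2e-04), IFIT1 (1.24, adjusted p = 0.0014), IFIT2 (0.74, adjusted p = 0.0092), DDX60 (0.73, adjusted p = 0.010) and ISG15 (0.73, adjusted p = 0.049), while for OASL (0.85, adjusted p = 0.11), IFI44 (0.53, adjusted p = 0.061) and GBP2 (0.86, adjusted p = 0.10) the difference between the siRNAs did not pass. Without the block 1 member, IFIT3, was called, and leaving out libraries left 3 to 7, the fewest without replicate 2 of siNC.

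**Figure D4:**
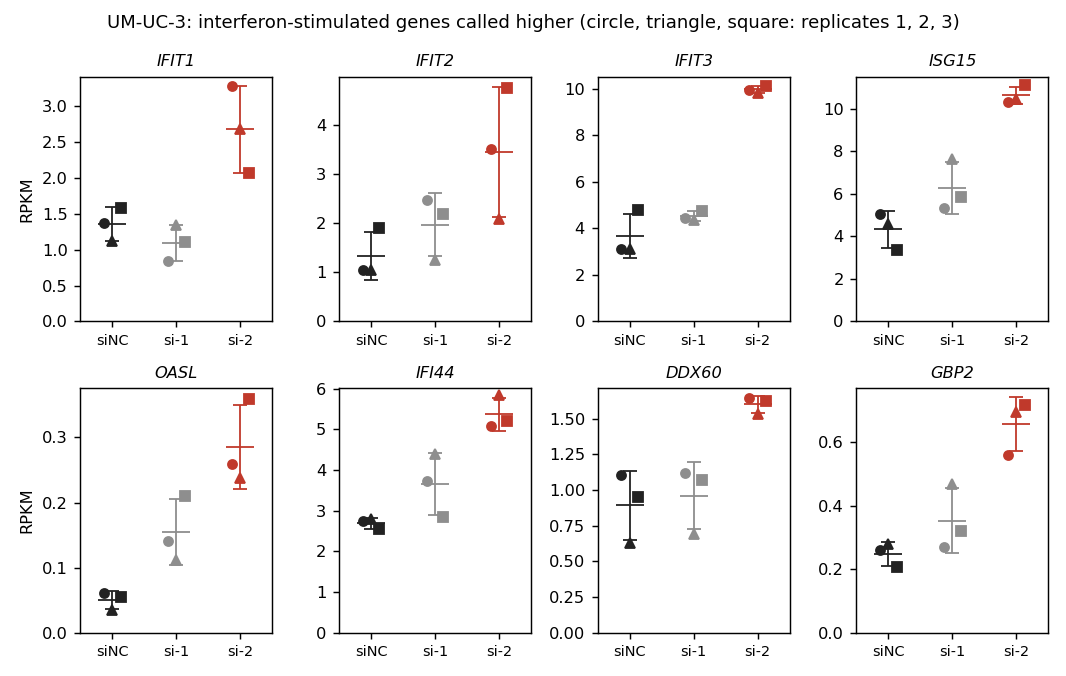
RPKM (y axis, linear, from 0) of the 8 interferon-stimulated genes called higher with siACAT1-2 in UM-UC-3 cells, with siNC (black), siACAT1-1 (si-1, grey) and siACAT1-2 (si-2, red). Each symbol is 1 library and the bars give the mean and the SD of 3 libraries. For each of the 8 genes the siACAT1-2 libraries lie above the siNC libraries, for IFIT3 at 9.83 to 10.1 RPKM against 3.11 to 4.78 RPKM.

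Higher genes outside that list are given next. Apart from BTN3A3 and APOL1 they were named after their values were seen, and they stand for no list. The butyrophilins BTN3A1, BTN3A2 and BTN3A3, which gamma delta T cells recognise, were all higher. BTN3A3 was at 0.820, 0.821 and 1.02 RPKM with siNC and 1.79, 1.82 and 1.74 RPKM with siACAT1-2 (log2 fold change 0.98, standard error 0.16, adjusted p = 0.0027), and BTN3A1 (0.77, adjusted p = 0.031) and BTN3A2 (0.56, adjusted p = 0.032) followed at smaller sizes. The 3 genes are close paralogs, so reads that fit more than 1 of them are uncertain. C3, the central complement component, rose from 0.187, 0.217 and 0.109 RPKM to 0.332, 0.582 and 0.606 RPKM (1.51, adjusted p = 0.0027), and APOL1, an apolipoprotein of innate immunity, from 0.443, 0.664 and 0.837 RPKM to 1.07, 2.12 and 1.61 RPKM (1.27, adjusted p = 0.0055). The inflammatory caspases CASP1 (0.72, adjusted p = 0.032) and CASP4 (0.69, adjusted p = 0.016) were higher as well. Of the 28 tested inflammatory cytokines and chemokines, 0 passed edgeR's test, 1 was higher at an unadjusted p under 0.05, 0 passed in DESeq2 or limma voom, and the median was 0.202.

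The other higher genes included iron storage, signalling and lysosomal genes. FTH1, the heavy chain of ferritin, was at 114, 113 and 244 RPKM with siNC and 247, 288 and 345 RPKM with siACAT1-2 (log2 fold change 0.95, standard error 0.14, adjusted p = 0.0011), and FTL, the light chain, was at 51.0, 40.6 and 77.6 RPKM against 94.8, 101 and 110 RPKM (0.85, adjusted p = 0.0074). Replicate 3 of siNC was well above the other siNC libraries for both, and in the model without the block neither passed (adjusted p = 1.0). Exons of BEST1, also called higher (0.94), cover 62.4% of the FTH1 exon bases, so these 2 genes cannot be told apart from the counts. FTH1 and FTL were the called members among 27 tested NRF2 antioxidant genes, whose median was 0.0431. NRP1, a co-receptor for semaphorins and VEGF, rose from 0.178, 0.227 and 0.326 RPKM to 0.562, 0.678 and 0.718 RPKM (1.39, standard error 0.16, adjusted p = 5.6e-05). HSD3B7, an enzyme of bile acid synthesis, rose from 0.0284, 0.0749 and 0.0389 RPKM to 0.323, 0.224 and 0.365 RPKM (2.58, standard error 0.43, adjusted p = 0.0035), with 64.6% of its exon bases shared with RP11-1072A3.3. TRANK1 stood with IFIT3 at the smallest p of all higher genes but under 1 RPKM, at 0.0824, 0.0837 and 0.127 RPKM with siNC and 0.320, 0.393 and 0.423 RPKM with siACAT1-2 (1.92, adjusted p = 4.8e-05).

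EPAS1, the transcription factor HIF-2alpha, rose from 5.05, 5.21 and 6.18 RPKM to 8.74, 10.7 and 8.74 RPKM (log2 fold change 0.74, standard error 0.13, adjusted p = 0.0040). ID2, an inhibitor of helix-loop-helix factors, was at 2.38, 4.97 and 1.66 RPKM with siNC and 7.30, 10.5 and 3.00 RPKM with siACAT1-2 (1.17, standard error 0.20, adjusted p = 0.0039). Its groups overlapped, since replicate 2 was the highest and replicate 3 the lowest in both, and the rise is seen within pairs. SLC38A10, a member of an amino acid transporter family (0.73, adjusted p = 7.6e-04), MEIS3, a homeobox factor (1.12, adjusted p = 0.0013), PROS1, the anticoagulant protein S (0.87, adjusted p = 0.0054), and HHIPL2 (1.28, adjusted p = 0.0053) were also among the 12 higher genes with the smallest p. Of 26 tested lysosome and autophagy genes, 0 passed edgeR's test, 10 were higher at an unadjusted p under 0.05 and DESeq2 called 2. Of the 26, 24 were above 0 and the median was 0.259. Outside that list, and chosen after their values were seen because they passed, were GRN, progranulin (0.71, adjusted p = 0.0088), MAN2B2, a mannosidase (0.66, adjusted p = 0.010), IGF2R, the receptor that sorts lysosomal enzymes (0.57, adjusted p = 0.012), and OSTM1 (0.57, adjusted p = 0.031). SCARB2, a lysosomal membrane protein with the word in its 3' UTR, fell from 9.95, 10.3 and 11 RPKM to 5.84, 6.28 and 6.0 RPKM (-0.83, adjusted p = 0.0014).

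Cell cycle genes were lower by small amounts, and few passed one by one. Of 54 tested G2/M genes, 6 were called lower and 0 higher by edgeR (24 and 0 at an unadjusted p under 0.05, and 11 and 0 by DESeq2), 53 were below 0 and 46 were lower in all 3 pairs, with a median of -0.302. HMGB2, a chromatin protein, was at 914, 830 and 791 RPKM with siNC and 602, 619 and 458 RPKM with siACAT1-2 (log2 fold change -0.64, standard error 0.11, adjusted p = 0.0038). MKI67, the Ki-67 antigen of cycling cells, was at 134, 138 and 86.8 RPKM against 101, 95.0 and 46.3 RPKM (-0.66, standard error 0.14, adjusted p = 0.019). The groups were separate for HMGB2, while for MKI67 replicate 3 was the lowest library of each group and the groups overlapped. TMPO, a nuclear envelope protein (-0.77, adjusted p = 0.0021), BIRC5, survivin (-0.55, adjusted p = 0.034), ANP32E (-0.55, adjusted p = 0.010) and ECT2, which directs cytokinesis (-0.48, adjusted p = 0.021), were the others, and ANP32E and ECT2 carry the word in their 3' UTRs. Without the block 0 G2/M genes passed, and without replicate 3 of all UM-UC-3 groups 0 passed, with 0 to 4 over all libraries left out.

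S-phase genes had the same kind of pattern. All 43 tested were below 0 and 36 were lower in all 3 pairs, the median was -0.338 (-0.128, -0.533 and -0.371 by pair), and 2 were called lower by edgeR (23 at an unadjusted p under 0.05, and 5 by DESeq2). These were PRIM1, the DNA primase subunit (-0.72, adjusted p = 0.017), and WDR76 (-0.81, adjusted p = 0.021), and of 42 members with a matched 3' UTR 0 carry the word. In bulk RNA fewer cells in a phase and less of a transcript per cell cannot be told apart. The study's 16 c-Myc targets of its heatmap, a list chosen by the study on these samples and so no independent evidence of a direction, were all below 0 with a median of -0.318, and RFC4 (-0.52, adjusted p = 0.038) and DCTPP1 were called. The replication helicase subunits among them, MCM2 (-0.52, adjusted p = 0.15), MCM4 (-0.46, adjusted p = 0.11), MCM6 (-0.39, adjusted p = 0.20) and MCM7 (-0.30, adjusted p = 0.24), did not pass.

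Of the 10 cell cycle regulators that the study followed as proteins, CDK6 passed. It was at 2.86, 3.17 and 2.80 RPKM with siNC and 1.78, 1.59 and 2.01 RPKM with siACAT1-2 (log2 fold change -0.77, standard error 0.15, adjusted p = 0.0085), and its 3' UTR holds 2 copies of the word. With siACAT1-1 in the same cells CDK6 was higher than with siNC, at 5.31, 3.47 and 5.39 RPKM (0.65, adjusted p = 0.020), and siACAT1-2 was below siACAT1-1 by -1.42 (adjusted p = 1.3e-05). MYC mRNA was at 39.5, 18.9 and 31.5 RPKM with siNC and 13.8, 15.4 and 37.7 RPKM with siACAT1-2. The siACAT1-2 library was below its siNC library in pairs 1 and 2 and above it in pair 3, and the gene did not pass (-0.49, standard error 0.23, adjusted p = 0.34). CDKN1A, which encodes p21, was at 2.65, 2.58 and 2.88 RPKM against 4.74, 5.40 and 4.98 RPKM. Its groups were well apart, but it did not pass in edgeR's test (0.87, standard error 0.23, adjusted p = 0.063). It passed in 4 of 18 alternative fits (DESeq2, the 9 and the 6 libraries alone, and no filter on low counts) and in 0 of those that left out a library, with adjusted p values from 3.35e-05 to 1.0 over the 18. MYC passed in 1 of them, with no filter on low counts (adjusted p = 0.0299). E2F1 (-0.31, adjusted p = 0.44), CDK2 (-0.21, adjusted p = 0.62), CDK4 (-0.08, adjusted p = 0.85), CCND1 (0.12, adjusted p = 0.77), CCNE1 (0.12, adjusted p = 0.85) and CDKN1B (-0.08, adjusted p = 0.88) did not pass either. CDKN2A, which encodes p16, had 0 counts in all 6 libraries.

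Ketone body and mitochondrial thiolase enzymes other than ACAT1 had log2 fold changes from -0.484 to 0.891. Of 12 tested, 3 were higher and 2 lower at an unadjusted p under 0.05, DESeq2 called 2 higher and limma voom called 0. By edgeR BDH2, a hydroxybutyrate dehydrogenase, was called higher, from 0.963, 0.414 and 0.603 RPKM to 1.47, 1.25 and 1.00 RPKM (log2 fold change 0.89, standard error 0.22, adjusted p = 0.047), and the list's median was 0.150. BDH2 did not pass in 11 of 18 alternative fits. With siACAT1-1 in the same cells its value was below 0 (-0.48, adjusted p = 0.29), and siACAT1-2 was above siACAT1-1 by 1.375 (adjusted p = 0.0014). In branched-chain amino acid breakdown (21 genes, median 0.00221), fatty acid oxidation (26, 0.0511), the tricarboxylic acid cycle (26, -0.0864), cholesterol synthesis (25, -0.161), fatty acid synthesis (13, -0.169), glycolysis and pyruvate oxidation (33, 0.144), the hypoxia response (20, 0.259) and the mitochondrial genome (13, -0.193), 0 genes passed edgeR's test. At an unadjusted p under 0.05 these lists held 0 to 6 higher and 0 to 7 lower genes, and DESeq2 called 0 or 1 of each in either direction. The signs of these medians were the same in all fits apart from branched-chain amino acid breakdown. Among 41 tested ATF4 stress response genes, 3 were called lower and 38 were below 0, with a median of -0.443. ATF4 itself was at 265, 141 and 336 RPKM with siNC and 137, 109 and 287 RPKM with siACAT1-2 (-0.55, adjusted p = 0.037), and the serine synthesis enzymes PHGDH (-0.66, adjusted p = 0.031) and PSAT1 (-0.92, adjusted p = 0.047) were the others. The replicates differed widely for these genes, and the list's median by pair was -1.12, -0.311 and -0.00275.

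For epithelial-mesenchymal transition, 0 of the 5 tested markers that the study followed as proteins passed edgeR's test, 1 was lower at an unadjusted p under 0.05, and 0 passed in DESeq2 or limma voom. CDH2, N-cadherin, was at 4.15, 3.89 and 4.05 RPKM with siNC and 3.93, 4.43 and 4.26 RPKM with siACAT1-2 (log2 fold change 0.02, adjusted p = 0.98), and VIM, vimentin, at 249, 249 and 306 RPKM against 262, 290 and 295 RPKM (0.03, adjusted p = 0.95). The groups overlapped for both. SNAI1 (0.71, adjusted p = 0.59), SNAI2 (0.43, adjusted p = 0.64) and MMP9 (-0.78, adjusted p = 0.15) did not pass. Of matrix and adhesion genes, TGFBI, a secreted matrix protein, rose from 4.18, 5.09 and 3.37 RPKM to 6.90, 8.03 and 5.41 RPKM (0.65, adjusted p = 0.032), and PLAUR, the urokinase receptor, from 29.6, 39.8 and 23.6 RPKM to 43.1, 55.1 and 50.9 RPKM (0.66, adjusted p = 0.010). TIMP2, an inhibitor of matrix proteases (0.55, adjusted p = 0.021), COL5A2, a collagen (0.77, adjusted p = 0.046), and DSG2, a desmosomal cadherin (0.68, adjusted p = 0.021), were higher too. Out of 18 alternative fits, PLAUR did not pass in 4, TIMP2 in 7, TGFBI in 10, DSG2 in 10 and COL5A2 in 11. The medians were 0.283 over 23 collagens and 0.0801 over 28 matrix proteases and inhibitors. The keratins KRT8 (-0.48, adjusted p = 0.020) and KRT18 (-0.44, adjusted p = 0.045) were lower, from 45.2, 36.0 and 40.5 to 28.8, 29.4 and 31.4 RPKM for KRT8, and 7.63% of its exon bases overlap KRT18. KRT8 did not pass in 9 of the 18 alternative fits and KRT18 in 12. Among 29 tested genes of the AKT and GSK3B pathway 0 passed edgeR's test or DESeq2, with 1 higher and 1 lower at an unadjusted p under 0.05 and a median of -0.0158. Among 15 of the MYC network 0 passed either, with 0 higher and 3 lower at that p and a median of 0.0367, and the signs of both medians changed between fits.

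The siRNAs were compared directly within UM-UC-3 cells, in a contrast that holds no siNC term. The siNC libraries still took part in the fit, through the replicate block and the estimate of the spread. Between them 1642 genes differed, 731 higher with siACAT1-2 (3.63% of those tested) and 911 lower (4.52%). This contrast uses the same siACAT1-2 libraries that chose the called genes, so a part of the overlap comes from those libraries, and the shares below are a description. Of the 145 genes that siACAT1-2 lowered against siNC, 108 (74.5%) were also lower than with siACAT1-1, and of the 128 that it raised 63 (49.2%) were also higher. ACAT1 itself was lower with siACAT1-2 than with siACAT1-1 by -0.54 (standard error 0.16, adjusted p = 0.035), at 1.83 to 2.79 against 2.25 to 3.60 RPKM. MTMR2 (-1.78, adjusted p = 1.7e-07), CPD, IPO7 and RAI14 (each adjusted p = 5.4e-06) were lower with siACAT1-2 as well. Over the 59 carriers of the word called lower, 53 were also lower than with siACAT1-1, and their median log2 fold change against siNC was -0.739 with siACAT1-2 and 0.0319 with siACAT1-1. Over the 62 lower genes with a matched 3' UTR and no word, 38 were lower than with siACAT1-1, and the medians were -0.668 and -0.135. Both contrasts with siNC share the siNC libraries, so they are given side by side only. Some genes were near one level with both siRNAs: EPAS1 (0.74 and 0.62 against siNC, difference 0.12, adjusted p = 0.60), FTL (0.85 and 0.78, difference 0.07, adjusted p = 0.84) and PRIM1 (-0.72 and -0.71, adjusted p of the difference = 0.997). Without the block 10 genes differed between the siRNAs.

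T24 cells transfected with siACAT1-2 share no library with the UM-UC-3 comparison. Of the 145 genes lower in UM-UC-3 cells, 107 (73.8%) were also called lower there, where 3.93% of all tested genes were, and these 107 are 13.5% of the genes called lower in T24 cells. Of the 128 higher genes, 53 (41.4%) were also called higher, against 4.55% of all tested genes, which is 5.79% of the genes called higher in T24 cells. The sign was the same for 133 of the lower genes (91.7%), while 47.7% of all tested genes were below 0 in T24 cells. It was the same for 104 of the higher genes (81.2%), while 51.9% of all tested genes were above 0. Of the lower genes KRT8 and PRSS23 were called higher in T24 cells, and of the higher genes 0 were called lower by edgeR, with 4 below 0 at an unadjusted p under 0.05. The word was chosen on these T24 libraries, so the next values describe its carriers and support nothing. The carriers called lower had 54 of 59 called lower in T24 cells too, with a median of -0.884 there, and of the 62 without the word 38 were, with a median of -0.591. For the same siRNA, MTMR2 had a log2 fold change of -2.06 in T24 cells against -1.46 in UM-UC-3 cells, IPO7 -1.32 against -0.95 and DCTPP1 -2.45 against -1.89. Without replicate 2 of the UM-UC-3 groups 26 lower and 9 higher genes were shared, and without the block 8 and 0.

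With siACAT1-1 in T24 cells, 27 of the 145 lower genes (18.6%) were called lower, against 7.31% of all tested genes, and 9 were called higher. Of the 128 higher genes 43 (33.6%) were called higher, against 6.59%, and 6 were called lower. Called in T24 cells with both siRNAs were 26 of the higher and 20 of the lower genes. Both T24 contrasts share the T24 siNC libraries, and the share over all tested genes was not counted, so these numbers are a description. As a description over 20144 genes, which are not independent, the log2 fold changes of siACAT1-2 in the 2 lines had a Pearson r of 0.157, and those of siACAT1-2 in UM-UC-3 cells and siACAT1-1 in T24 cells had 0.0925. Interferon-stimulated genes had a median of 0.407 with siACAT1-2 in T24 cells, beside 0.424 with siACAT1-1, with 11 called higher, among them IFIT3 (0.78, adjusted p = 0.0029), ISG15 (0.72, adjusted p = 0.030) and GBP2 (1.45, adjusted p = 0.0027), while IFIT2 (0.32, adjusted p = 0.22), OASL (0.41, adjusted p = 0.33) and IFIT1 (0.05, adjusted p = 0.93) did not pass there. G2/M genes had a median of -0.601 with siACAT1-2 in T24 cells with 39 called lower, against -0.302 and 6 in UM-UC-3 cells, and with siACAT1-1 their medians were -0.752 and -0.123. The effect of siACAT1-2 itself differed between the lines for 26 genes (0.129% of those tested), 10 of them with a larger value in UM-UC-3 cells and 16 with a smaller one. It was 0 genes without the block, and leaving out libraries left 1 to 13, the fewest without replicate 2.

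**Figure D5:**
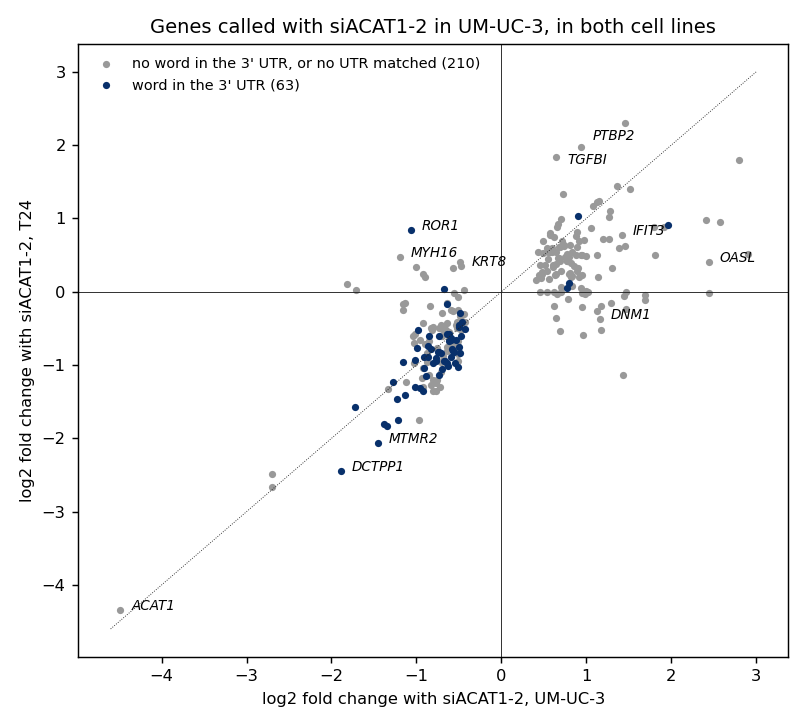
Log2 fold change with siACAT1-2 against siNC in UM-UC-3 (x axis) and T24 cells (y axis) for the genes called in UM-UC-3 cells. Dark blue points carry the word in their 3' UTR and grey points do not or have no matched 3' UTR, and the dotted line marks equal values. The lower genes lie near the line, with 107 of 145 also called lower in T24 cells, while the higher genes lie mostly below it, with 53 of 128 called, and ROR1, MYH16 and KRT8 are below 0 on the x axis and above 0 on the y axis.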

How the data were processed

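RNA extracted with TRIzol was made into stranded mRNA libraries with 8-base molecular identifiers (KC-Digital kit) and sequenced on an Illumina NovaSeq instrument, as the labels state. The authors trimmed reads with Trimmomatic 0.36, aligned them to GRCh38 with STAR 2.5.3 and assigned them to genes with featureCounts of Subread 1.5.1. The deposited table holds unnormalized read counts per gene, RPKM values that the authors computed from them, and gene lengths. The setting for strand and the handling of identifiers in counting are not given in the sources used here.

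Counts of all 18 libraries were fitted with edgeR 4.0.16 in R 4.3.3 (TMM scaling, filterByExpr by group, quasi-likelihood test), with 6 group terms and the replicate number within each cell line as a block. Alternatives used limma 3.58.1 and DESeq2 1.42.0, other scalings, filters and sets of libraries. The steps were tested on simulated data. For the fit, these data held replicate effects shared within each cell line, as the block assumes. They cannot show whether the block is right for the real libraries. Replicate numbers are shared between groups in the labels, which do not say what they mark. Same-numbered siNC and siACAT1-2 libraries deviated together with correlations of 0.115, 0.348 and 0.489, against -0.442 to 0.22 for other pairings, and replicate 1 of siACAT1-2 correlated more with replicate 2 of siNC (0.22) than with its own number. Replicates of a group differed beyond sampling noise (chi-square per degree of freedom 13 to 122).

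Named genes were ACAT1, the 12 called higher and 12 called lower with the lowest p that moved alike in the 3 pairs and had a mean of at least 1 RPKM in either group, genes called without the block, up to 4 called members of each gene list and every member of the lists the study followed, genes called alike in both lines, and called-lower carriers of the 7-base word. Further members of a list, and genes marked so in the text, were named after their values were seen. S phase and G2/M lists come from Seurat 5.3.0. The members and lists were chosen with earlier results of these data known, and the c-Myc targets were picked by the study on these samples. The 3' UTRs were those of the Ensembl canonical transcript of each gene in GENCODE, and other transcripts were not searched. Names were matched by symbol for 15081 genes and by RefSeq synonym for 750, and 13547 of the tested genes had a 3' UTR. Results for some genes are not reported here.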

Additional observations from a re-analysis of the deposited data

Results flagged for a closer look

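The effect of siACAT1-2 differed between UM-UC-3 and T24 cells, by the difference of the effects in edgeR's model, for 10 genes that were called in UM-UC-3 cells. In each, the effects in the lines had opposite signs, but in T24 cells only those of KRT8 and PRSS23 passed edgeR's test. Asking for both a call in UM-UC-3 cells and a called difference favours opposite signs. ROR1, a receptor kinase with the word in its 3' UTR, had a fitted log2 value of -1.07 for UM-UC-3 and of 0.84 for T24, a difference of -1.91 (adjusted p = 0.023). In UM-UC-3 cells it was at 1.88, 1.88 and 1.94 RPKM with siNC and 0.907, 0.914 and 0.976 RPKM with siACAT1-2, and it was at 0.139 RPKM or less with siNC in T24 cells. In the same order, and with adjusted p values from 0.017 to 0.038 over the other genes, KRT8 had -0.48 and 0.35 (difference -0.823), PRSS23 -0.49 and 0.41 (-0.896), CCDC80 -0.57 and 0.33 (-0.901), RP11-54H7.4 -1.0 and 0.34 (-1.34) and MYH16 -1.19 and 0.47 (-1.66). With the higher value in UM-UC-3 cells, FKBP11 had 0.69 and -0.53 (difference 1.22), DNM1 1.16 and -0.37 (1.53), HMGN5 0.64 and -0.36 (1.00) and CTD-2033A16.1, all of whose exon bases overlap NQO1, 0.96 and -0.58 (1.54). Without the replicate block 0 genes differed between the lines in edgeR's test. What sets the difference between the lines was not tested.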

How the results depend on the processing

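The cause of the changes below was not tested. In the fit without the replicate block, 3 genes were higher and 8 lower, 10 differed between the siRNAs and 0 differed between the lines. Fits of the 9 UM-UC-3 libraries gave 236 higher and 258 lower genes, and those of the 6 libraries of siNC and siACAT1-2 gave 293 and 296. With no filter on low counts there were 371 and 274, with 229 differing between the lines, and DESeq2 gave 274 and 269, with 106. Upper quartile scaling moved the higher share of the calls from 46.9% to 53.3%, and no scaling moved the median of all genes beyond 0.0142. Leaving out libraries gave 12 to 67 higher and 34 to 68 lower genes, 135 to 1609 between the siRNAs, 1 to 13 between the lines, and an ACAT1 log2 fold change of -4.665 to -4.286. Counted after seeing the data, the other fits gave 1 to 18 interferon-stimulated genes higher, 0 to 16 G2/M genes lower and 6 to 87 carriers lower. Genes that were not called changed sign without 1 or more libraries: TCOF1 ranged from -0.275 to 0.03609, CDKN1B from -0.2176 to 0.04067, VIM from -0.05407 to 0.1309, CCNE1 from -0.05405 to 0.362 and CDH2 from -0.06518 to 0.1023.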

Other observations

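Further gene lists had few called members in UM-UC-3 cells with siACAT1-2. By edgeR, ETV1 (0.83, adjusted p = 0.041), a transcription factor, was higher among 28 ERK output genes (median 0.126), and ID2 was the called gene among 29 of the TGF-beta and BMP pathway (median 0.0626). AXL and ROR1 were lower among 23 growth factor receptor kinases (median -0.0308), CDK6 among 19 cyclins and CDKs (median -0.053), TGFBI was higher among 14 EMT factors and mesenchymal genes (median 0.0543) and DSG2 among 16 cadherins and catenins (median -0.00439). The medians of the ERK, receptor kinase and cadherin lists took both signs over all fits.

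In the remaining lists 0 genes passed edgeR's test. Over all fits the median took both signs for the unfolded protein response, CDK inhibitors and the metallothionein list, and reached 0 for targets of p53. The unfolded protein response (23 tested, median -0.181) had 0 higher and 8 lower genes at an unadjusted p under 0.05, and DESeq2 called 2 lower. Clustered histones (16, median 0.361) had 4 higher and 0 lower, and DESeq2 called 1 higher. Targets of p53 (29, median 0.0714) had 4 higher and 2 lower, and DESeq2 called 2 higher and 1 lower. Integrins and laminins (25, median 0.133) had 3 higher and 1 lower, and RNA interference genes (13, median -0.0779) had 1 higher and 2 lower, with 0 called by DESeq2 in both. CDK inhibitors (8, median -0.043) had 1 higher and 1 lower, and DESeq2 called 1 higher. Their median ran from -0.25 to 0.357 over the fits, and 2 of them had 0 counts throughout at least 1 group. Metallothionein and zinc transport genes (8, median 0) had 0 of each and 0 called by DESeq2. Fibroblast and smooth muscle markers (9, median 0.267) had 2 higher and 0 lower, and limma voom called 1 higher, with their sum at 4.39 to 5.12 RPKM with siNC and 5.87 to 6.79 RPKM with siACAT1-2.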
